A study of Mus musculus with 13 samples.

Results

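Small nucleolar RNA host genes are transcribed as long RNAs whose introns are cut out and trimmed into small nucleolar RNAs (snoRNAs). The 7 described here, Gas5, Snhg1, Snhg3, Snhg5, Snhg6, Snhg8 and Snhg12, were taken by symbol, and all 7 had a row in the deposited table of 22656 genes. The symbols were paired with mouse Ensembl identifiers through GENCODE M21. The rule itself reads no measured value, but the group was proposed with earlier results of these data known. All 7 passed the filter on low values described below.

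RNA was measured in mouse melanoma cells of a B16F10 derivative (B16F10-TR-shApoe), which in both groups carries a hairpin against the cells' own Apoe gene. The cells, 100000 per mouse, were injected into the tail vein of knock-in mice with human APOE2 or APOE3, and the lungs were taken on day 15. Per the design text there were 8 APOE2 mice and 5 APOE3 mice, so the genotype compared is that of the host and not of the tumour cells. Cells that were low for the dead-cell dye TO-PRO-3, negative for CD45 and positive for GFP were sorted, and their RNA was read with a 3′ end kit (QuantSeq FWD), which gives about a single tag per polyadenylated transcript. The age, sex and strain background of the mice are not given in the sources used here, nor is the clonal state of the line. The labels do not tie each library to a named mouse. The p-values below therefore rest on the spread between these libraries, which may in part be technical.

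By way of background, snoRNAs guide the chemical modification of ribosomal RNA: the box C/D class directs ribose methylation and the box H/ACA class directs pseudouridylation. The spliced host RNA that is left over is often a substrate of nonsense-mediated decay, the pathway that removes RNAs with early stop codons. Several host genes begin, as ribosomal protein genes do, with a 5′ terminal oligopyrimidine (TOP) motif, a C at the first base followed by a run of C and T, through which mTOR signalling controls translation. The reads of a member are taken here as those of the polyadenylated host RNA, and their place within the gene was not tested. Excised snoRNAs have no poly(A) tail and are not the target of such a library. Even so, Snora73b, inside Snhg3, had reads (values below). All annotated snoRNAs inside members except Snora73b and Snord87 share bases with an annotated exon of their host.

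Gas5 (ENSMUSG00000053332, chr1:161034422-161038539 on GRCm38, plus strand) is annotated with 9 snoRNA positions inside its span. Snhg1 (ENSMUSG00000108414, chr19:8723475-8726443, plus strand) has 8, and Snhg12 (ENSMUSG00000086290, chr4:132308623-132311024, plus strand) has 4, Snora16a, Snora44, Snora61 and Snord99. Snhg3 (ENSMUSG00000085241, chr4:132348014-132353686, minus strand) holds the H/ACA RNAs Snora73a and Snora73b, and Snhg5 (ENSMUSG00000097195, chr9:88521050-88522929, minus strand) holds the C/D RNAs Snord50a and Snord50b. Snhg6 (ENSMUSG00000098234, chr1:9941959-9944118, minus strand) holds Snord87, and Snhg8 (ENSMUSG00000104960, chr3:123507552-123508404, minus strand) holds Snora24. All 7 are annotated as noncoding. They are short genes: the median transcript length of a member was between 437 bases (Snhg3) and 915.5 bases (Snhg12), and the median over the 7 was 602.5 bases, against 632 bases for 75 ribosomal protein genes and 1364.5 bases for all tested genes.

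The sequence around the transcription start is shown because a TOP start is the feature the members are known to share with ribosomal protein genes. Of the 7 members, 6 (all but Snhg6) matched the RefSeq promoter table (GRCm38.p6), which holds 2 starts for Gas5. Each line gives 50 bases before the annotated start and 50 bases from it onward, 5′ to 3′ on the gene's own strand. Capitals mark a C followed by at least 4 bases that are each C or T, beginning within 10 bases of the start (gene strand only), or TATAAA on either strand lying 40 to 16 bases before the start. Copies outside these windows are left in lower case.
Gas5 start 1, chr1:161034551-161034650, plus strand: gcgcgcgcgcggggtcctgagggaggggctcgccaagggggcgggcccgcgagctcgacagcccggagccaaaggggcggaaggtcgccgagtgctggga
Gas5 start 2, chr1:161035116-161035215, plus strand: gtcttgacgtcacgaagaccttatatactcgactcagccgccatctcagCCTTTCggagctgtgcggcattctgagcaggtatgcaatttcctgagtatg
Snhg1, chr19:8723437-8723536, plus strand: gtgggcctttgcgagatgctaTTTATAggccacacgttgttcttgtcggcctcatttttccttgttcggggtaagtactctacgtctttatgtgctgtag
Snhg3, chr4:132353637-132353736, minus strand: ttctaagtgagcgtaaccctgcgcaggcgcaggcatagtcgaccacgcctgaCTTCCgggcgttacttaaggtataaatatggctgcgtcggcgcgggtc
Snhg5, chr9:88522848-88522947, minus strand: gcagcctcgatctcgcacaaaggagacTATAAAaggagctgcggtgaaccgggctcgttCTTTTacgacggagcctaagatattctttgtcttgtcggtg
Snhg8, chr3:123508287-123508386, minus strand: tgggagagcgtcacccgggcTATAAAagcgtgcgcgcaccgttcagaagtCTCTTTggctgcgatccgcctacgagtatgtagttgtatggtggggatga
Snhg12, chr4:132308628-132308727, plus strand: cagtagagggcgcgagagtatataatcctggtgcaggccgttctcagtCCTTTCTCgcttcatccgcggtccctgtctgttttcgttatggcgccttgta

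A pyrimidine run stood at 5 of the 7 member starts: Gas5 start 2, Snhg3, Snhg5, Snhg8 and Snhg12. The same search found a run in 29.7% of 32851 promoters (9768) and in 36 of 66 promoters of ribosomal protein genes (54.5%, 56 genes). TATAAA stood in the window of 3 members, Snhg1 (on the opposite strand), Snhg5 and Snhg8, in 2.48% of all promoters and in 0 of the 66 ribosomal protein promoters. These are matches of letters around annotated starts and were not tested against the expression values.

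Every member was detected in all 13 libraries, and their levels spanned a wide range. Levels are deposited normalised counts, which are reads divided by a factor per library. With a 3′ end library they are not divided by transcript length, since a transcript gives about a single tag whatever its length. In the order of the mean over 13 libraries, Gas5 stood first (9966 normalised counts), followed by Snhg1 (2052), Snhg8 (1684), Snhg3 (1014), Snhg12 (461), Snhg6 (230) and Snhg5 (162). Gas5 was above Snhg1 in 13 of 13 libraries, by a median ratio of 5.00, and the 2 ranges did not meet. The other neighbours in this order overlapped in range: Snhg1 was above Snhg8 in 11 of 13 libraries and Snhg6 above Snhg5 in 10 of 13, while the 3 pairs between them kept their order in 12 of 13. Together the 7 genes took between 0.101% of reads (APOE3 replicate 2) and 0.270% (APOE2 replicate 1) of a library, most of it from Gas5.

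**Figure D1:**
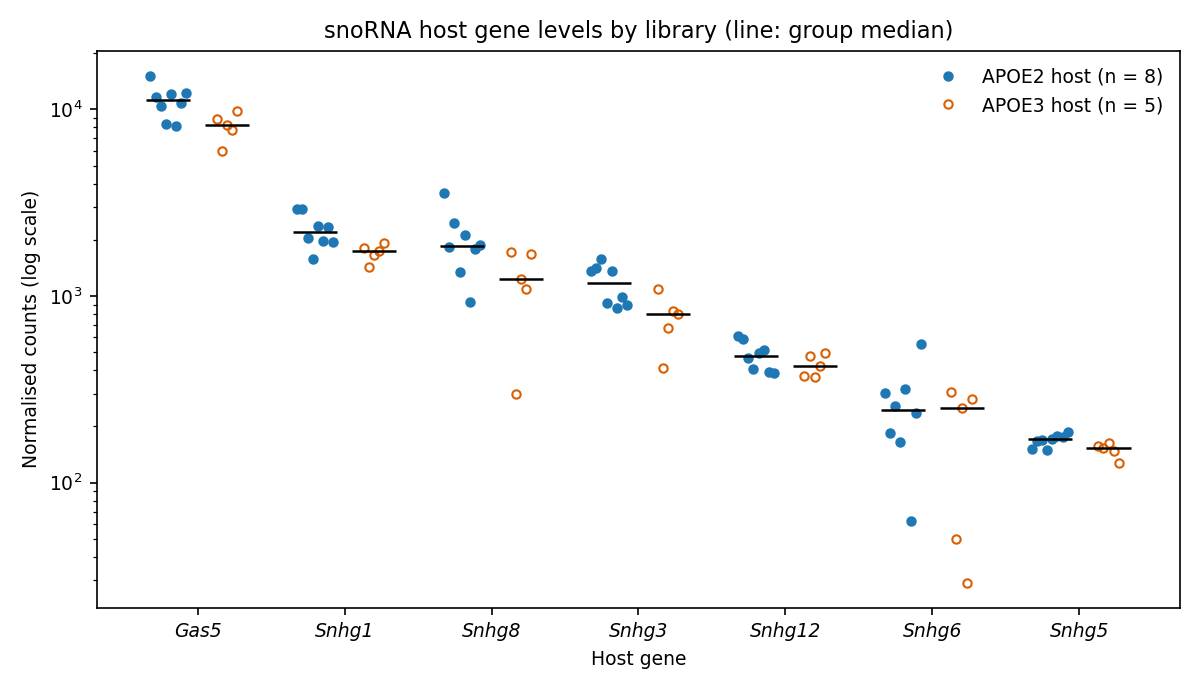
Normalised counts (log axis) of the 7 host genes in each of 8 APOE2 (filled) and 5 APOE3 (open) libraries, with a line at the group median. Gas5 lies apart above the rest, Snhg5 varies least, Snhg6 and Snhg8 have the widest spreads, and the groups overlap for every gene.

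The libraries held between 7080308 and 13039989 reads, and no pair of libraries of a group was a duplicate. All 8 melanoma markers (Dct, Tyr, Tyrp1, Pmel, Mlana, Mitf, Sox10 and Gpnmb) were above 0 in every library, with a summed level of 344363 to 501696 normalised counts in APOE2 and 271661 to 381830 in APOE3. By gene they were balanced, with 4 of 8 higher in APOE2 in mean log2 value, a median difference of 0.031 and none called, and the list's mean log2 value was highest in APOE3 replicate 2 (14.44). Markers of other lung cells were present at far lower levels, and those called were lower in APOE2. The 15 lung epithelium markers summed to 658 to 4096 normalised counts in APOE2 and 3444 to 21325 in APOE3, with 6 of 11 tested called lower. The 12 leukocyte markers summed to 444 to 2408 and 1930 to 12251 (2 of 6 called lower), the 10 endothelial markers to 617 to 963 and 804 to 1752 (1 of 10), and the 10 fibroblast and smooth muscle markers to 120 to 442 and 248 to 1883 (1 of 6). The 2 leukocyte markers called were Lyz2 and Cd74. Lyz2 alone ran from 186 to 2119 normalised counts in APOE2 and from 1506 to 11891 in APOE3, so it carried much of that sum. The leukocyte and lung epithelium sums were both highest in APOE3 replicate 4. The cells had been sorted as negative for CD45, and which cells the Lyz2 and Cd74 reads came from was not tested. The erythroid markers summed to 40.6 to 189 in APOE2 and 23.2 to 220 in APOE3 (0 of 3 called). Cd3e, Cd79a, Csf1r, Adgre1, Itgam and Tyrobp of the leukocyte list were at 0 in at least 1 library. So were Hopx, Scgb1a1, Scgb3a2, Epcam, Krt8 and Krt18 (epithelium), Tek and Emcn (endothelium), and Lum, Pdgfra, Tagln and Myh11 (fibroblast and smooth muscle). In bulk RNA, fewer cells of a type and less RNA per cell cannot be told apart. The rRNA-like noncoding gene Gm42418 took 0.662% to 2.17% of reads in APOE2 and 1.11% to 3.74% in APOE3, with the highest share in APOE3 replicates 2 (3.74%) and 3 (3.03%). Mitochondrially encoded genes took 4.22% to 5.04% of reads in APOE2 and 5.27%, 5.71%, 6.29%, 5.64% and 4.30% in APOE3, so 4 of the 5 APOE3 libraries lay above every APOE2 library. The part of either share in the differences below was not tested.

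All 7 host genes had a higher mean log2 value in cells from APOE2 mice, and none of these differences passed the test. The test was limma on log2(normalised count + 1), two-sided, with Benjamini-Hochberg adjustment over the 12403 genes whose mean was at least 10 normalised counts, at a threshold of 0.05. Differences below are APOE2 minus APOE3 on that log2 scale. limma draws each gene's variance toward a trend fitted over all genes by level. Its SEs, intervals and p-values thus do not rest on a gene's own spread alone. By this test, 0 of 7 members were called, against 98 of all tested genes (0.79%). Of these 98, 51 were higher in APOE2 (0.411%) and 47 lower (0.379%). At an unadjusted p under 0.05, 4 of 7 members (Gas5, Snhg1, Snhg3 and Snhg8) were higher and 0 lower, against 7.51% of all genes higher and 6.71% lower. That count of 4 was 3 without APOE3 replicate 2 (6.82% of all genes higher). It was also 3 with DESeq2 (6.7%), robust limma (7.46%), limma without the trend (6.47%) or length and GC content taken out (8.05%). Snhg8 was the member that fell out, except in the last, where it was Snhg1. The count was 2 with an equal ribosomal protein mean (1.14%) or with a leukocyte marker covariate (4.68%), and 1, Gas5, without APOE3 replicates 2 and 3 (6.79%). It was 5, with Snhg6 added, without APOE2 replicate 6 (7.54%), APOE3 replicate 1 (8.82%) or 5 (8.25%), or with a replicate block (5.59%). edgeR and DESeq2 on the recovered reads also called 0 of 7, with 61 (0.492%) and 153 (1.23%) of all genes called higher. The median difference over the 7 members was 0.44, and over all tested genes it was 0.000365. The count of all genes called varied with the library left out. Of APOE3, it was 228 without replicate 1, 76 without replicate 2, 9 without replicate 3, 30 without replicate 4 and 79 without replicate 5. Of APOE2, it was 28 to 57 without replicate 1, 2, 5, 7 or 8, and 71 to 110 without replicate 3, 4 or 6. The part that having fewer libraries plays in this was not tested.

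Gas5, the growth arrest-specific transcript, accumulates in cells that stop growing and is known as a decoy of the glucocorticoid receptor. Its 8 APOE2 libraries ran from 8145 to 15072 normalised counts with a median of 11264, and the 5 APOE3 libraries read 8913, 5990, 8252, 7778 and 9824. Of the 8 APOE2 libraries, 6 lay above every APOE3 library, and replicates 4 (8304) and 6 (8145) lay inside the APOE3 range. The means were 11101 ± 2248 (SD, n = 8) and 8151 ± 1432 (SD, n = 5). The difference was 0.44 (SE 0.14, 95% interval 0.15 to 0.73), a fold of 1.36 (1.11 to 1.66), with a limma p of 0.00493 and a Benjamini-Hochberg adjusted p of 0.154. Zbtb37, a zinc finger gene on the opposite strand whose start is 427 bases away, shares no exon bases with Gas5 and had 195 ± 22.7 and 168 ± 44.7 normalised counts (difference 0.24, limma adjusted p = 0.598).

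Snhg1, host of several box C/D snoRNAs, showed the fewest APOE2 libraries inside the APOE3 range. APOE2 ran from 1580 to 2938 normalised counts with a median of 2189, and APOE3 read 1814, 1425, 1651, 1743 and 1912. Of the 8 APOE2 libraries, 7 lay above all APOE3 libraries, and replicate 4 (1580) was the exception. The means were 2266 ± 482 (SD, n = 8) and 1709 ± 186 (SD, n = 5), and the difference of 0.39 (SE 0.13, 95% interval 0.11 to 0.66) gave a limma adjusted p of 0.191. Snhg1 is divided from its divergent neighbour Slc3a2, which encodes the heavy chain of amino acid transporters, by 106 bases between their starts. Slc3a2 had 6068 ± 379 normalised counts in APOE2 and 5981 ± 982 in APOE3, a difference of 0.034 (95% interval -0.18 to 0.25) with a limma adjusted p of 0.923. The difference between the differences of the 2 genes was not tested.

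Snhg3, whose Snora73 RNAs take part in the processing of ribosomal RNA, had the smallest p of the 7. APOE2 ran from 859 to 1575 normalised counts with a median of 1176, and APOE3 read 1084, 414, 676, 832 and 805. All 8 APOE2 libraries were above the APOE3 median, but only 4 were above the highest APOE3 library. The means were 1172 ± 285 (SD, n = 8) and 762 ± 245 (SD, n = 5). The difference was 0.65 (SE 0.19, 95% interval 0.26 to 1.04), a fold of 1.57, with a limma p of 0.00212 and an adjusted p of 0.108. Without APOE3 replicate 1, the highest of its group at 1084, the difference was 0.79 and passed the test (limma adjusted p = 0.0297), in a fit that called 1.06% of all genes higher. That was the single call of a member in any setting tried.

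Snhg3 overlaps other annotated genes, and the strand used in counting is not given in the sources used here. Rcc1, which encodes the guanine nucleotide exchange factor of Ran, starts 81 bases away on the same strand and shares 135 exon bases with Snhg3. It had 948 ± 182 normalised counts in APOE2 and 886 ± 256 in APOE3 (difference 0.14, limma adjusted p = 0.764). Of the snoRNAs inside members only Snora73b and Snord87 (in Snhg6, under the filter) had rows in the table, and Snora73b had 666 ± 217 and 605 ± 178 normalised counts (difference 0.13, limma adjusted p = 0.809). Gm17300, on the opposite strand, shares 705 exon bases with Snhg3. Reads from these shared stretches cannot be assigned to a gene with certainty.

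Snhg8, host of Snora24, had the largest difference of the 7 and also the widest spread after Snhg6. APOE2 ran from 926 to 3550 normalised counts with a median of 1850, and APOE3 read 1713, 298, 1232, 1085 and 1673. There were 6 APOE2 libraries above all APOE3 libraries. APOE3 replicate 2, at 298, was far below every other library, and replicate 6 (926) was the lowest of APOE2. The means were 1987 ± 784 (SD, n = 8) and 1200 ± 573 (SD, n = 5). The difference was 0.85 (SE 0.31), with a limma p of 0.0117 and an adjusted p of 0.212. Without APOE3 replicate 2 it was 0.41 (limma adjusted p = 0.450). The log2 SD of Snhg8 was 0.57 in APOE2 and 1.03 in APOE3, a spread that alone would give a larger SE. Its unadjusted p was 0.0594 in limma without the trend.

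Snhg6, host of Snord87, varied more between libraries of a group than between the groups. APOE2 ran from 62.1 to 551 normalised counts with a median of 246, and APOE3 read 308, 49.7, 251, 29.2 and 282. A set of 3 libraries, APOE2 replicate 6 (62.1) and APOE3 replicates 2 (49.7) and 4 (29.2), lay well below the other 10, which ran from 166 to 551. The highest library was 18.9 times the lowest. The coefficient of variation was 55.3% in APOE2 and 72.6% in APOE3, where counting alone would give 7.44% and 11.5%. The mean log2 difference of 0.81 (95% interval -0.20 to 1.83, limma adjusted p = 0.466) went with medians that ran the other way, 246 in APOE2 and 251 in APOE3, and it was 0.29 without APOE3 replicate 4 and 0.48 without APOE3 replicate 2. Mcmdc2, a meiotic MCM-domain gene on the opposite strand, shares 127 exon bases with Snhg6 and was close to the filter, at 8.94 normalised counts in APOE2 and 18.9 in APOE3.

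Snhg12 and Snhg5 differed least between the groups. Snhg12 ran from 386 to 611 normalised counts in APOE2 (median 479) and read 371, 475, 366, 421 and 497 in APOE3. In APOE2, 3 libraries lay above all of APOE3, and the difference was 0.17 (95% interval -0.13 to 0.47, limma adjusted p = 0.637). Snhg5 ran from 150 to 187 in APOE2 (median 171) and read 157, 154, 163, 148 and 127 in APOE3. In APOE2, 6 libraries lay above all of APOE3, by a narrow margin, and the difference was 0.17 (95% interval -0.19 to 0.53, limma adjusted p = 0.697). The spread of Snhg5 within a group was close to that of counting: its coefficient of variation was 7.41% in APOE2 and 9.22% in APOE3, against 7.51% and 8.47% from the number of reads. On the log2 scale its SD was 0.11 in APOE2 and 0.14 in APOE3, while the moderated SE of its difference was 0.18. The interval is wider than its own spread alone would give. Its unadjusted p was 0.334 in limma and 0.102 in limma without the trend.

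The members did not all follow the same libraries. APOE3 replicate 2 was the lowest of its group in Gas5, Snhg1, Snhg3 and Snhg8, with deviations from the group mean of -0.43, -0.26, -0.81 and -1.78 log2 units, and it deviated by -1.33 in Snhg6. In Snhg12 and Snhg5 the same library was 0.17 and 0.042 above its group mean. APOE2 replicate 6 was the lowest of its group in Gas5, Snhg3, Snhg6 and Snhg8 (deviations of -0.42 in Gas5, -0.41 in Snhg3 and -1.83 in Snhg6), and APOE2 replicate 1 was the highest in Gas5, Snhg1, Snhg8 and Snhg12. APOE3 replicate 2 also had the largest share of Gm42418, and its leukocyte markers had the highest mean log2 value of the 13 libraries (4.93, against 3.74 to 4.61 in the other APOE3 libraries), although their sum of 3968 normalised counts lay below the APOE3 median of 4641. Its lung epithelium markers were below the APOE3 medians in sum (8005 against 12185) and in mean log2 value (5.85 against 6.11). Without APOE3 replicates 2 and 3, those with the most Gm42418, the difference was 0.31 for Gas5, 0.29 for Snhg1, 0.34 for Snhg3 and 0.35 for Snhg8, and limma called 1 gene of all those tested. With the mean log2 level of the lung epithelium markers as a covariate the differences were 0.55 for Gas5, 0.62 for Snhg1, 0.58 for Snhg3, 0.90 for Snhg8, 0.36 for Snhg12, 0.23 for Snhg6 and 0.13 for Snhg5. With that of the leukocyte markers they were 0.47 for Gas5, 0.41 for Snhg1, 0.36 for Snhg3 and 0.64 for Snhg8.

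**Figure D2:**
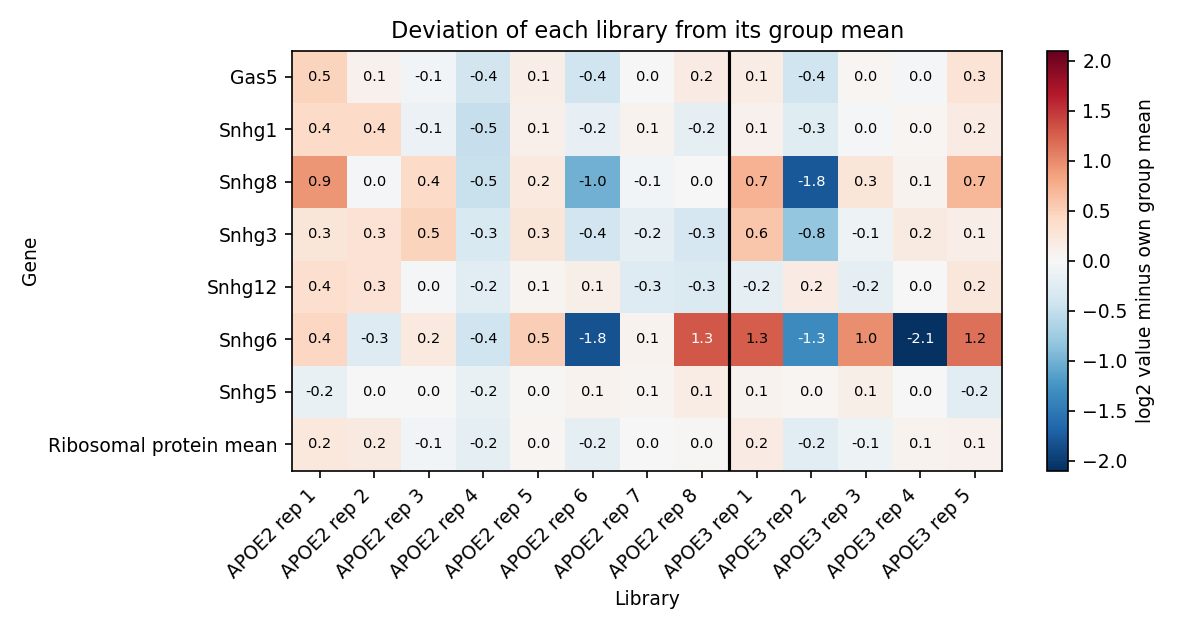
Deviation of each library (columns) from the mean log2 value of its own group, for the 7 host genes and for the mean of 75 ribosomal protein genes (colour and printed value in log2 units). APOE3 replicate 2 and APOE2 replicate 6 are low in Gas5, Snhg3, Snhg6 and Snhg8, Snhg6 has the largest deviations, and Snhg5 stays within 0.23 of its group mean.

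Ribosomal protein genes, which encode the protein part of the ribosome and share the TOP start, were also more often higher in APOE2. Of 75 tested, 63 had a positive difference, and the median difference was 0.25. At an unadjusted p under 0.05, 37 were higher and 0 lower. With adjustment, 6 were called higher and 0 lower. The 6 were Rpl35 (0.96), Rpl35a (0.89), Rps23 (0.84), Rpl6 (0.65), Rps27 (0.65) and Rps21 (0.64). Their count was 15 without APOE3 replicate 1 and 0 without APOE3 replicate 3 or 4. It was 1 without APOE2 replicate 1, 2 or 5, 2 without APOE2 replicate 7, and 3 without APOE2 replicate 8 or APOE3 replicate 2. The mean log2 level of the 75 genes was 12.52 ± 0.16 in APOE2 (SD, n = 8) and 12.24 ± 0.16 in APOE3 (SD, n = 5), and it was lowest in APOE3 replicate 2 (12.02). Ribosomal protein genes have many processed copies in the genome, and how the counting treated reads shared with them is not given in the sources used here.

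Scaling the libraries to equal ribosomal protein levels moves every gene's difference by the same amount, -0.28, so the members' values under it follow from those above and are no separate evidence. limma then called 12 genes higher (0.0968%) and 417 lower (3.36%). Under it Gas5 differed by 0.16 (limma adjusted p = 0.414) and Snhg1 by 0.11 (0.605), Snhg3 by 0.37 (0.160), Snhg8 by 0.58 (0.161) and Snhg6 by 0.54 (0.447). Snhg5 and Snhg12, whose differences were smaller than the shift, came to -0.10 and -0.11.

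**Figure D3:**
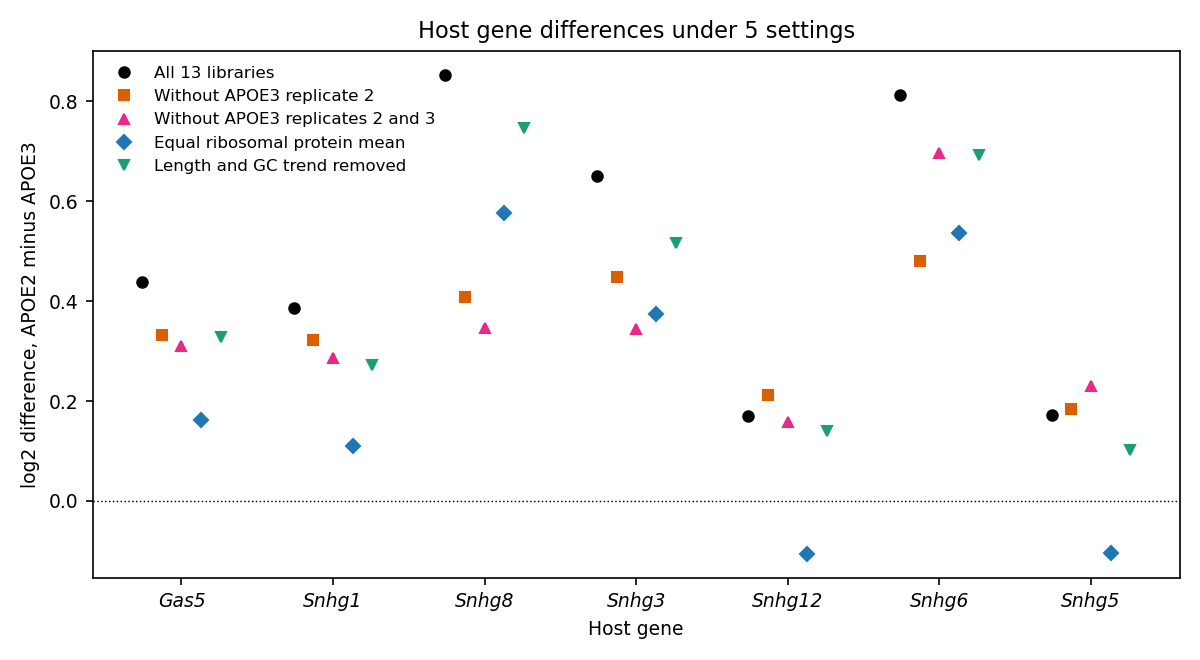
Difference between APOE2 and APOE3 (log2) of each host gene under 5 settings: all libraries, without APOE3 replicate 2, without APOE3 replicates 2 and 3, with an equal ribosomal protein mean in every library, and with the fitted dependence on length and GC content taken out. Gas5, Snhg1, Snhg3, Snhg6 and Snhg8 stay above 0 in each, and Snhg5 and Snhg12 lie below 0 with an equal ribosomal protein mean, a scaling that moves every gene by -0.28.

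The members are short, and differences varied with transcript length over all genes. Among the 2492 tested genes with the shortest median transcript length (57 to 737 bases), the median difference was 0.045 with 27 called higher and 13 lower, and among the 2479 with the longest it was -0.028 with 2 higher and 7 lower. When a fitted dependence on length and GC content was taken out of each library, Gas5 differed by 0.33, Snhg1 by 0.27, Snhg3 by 0.52 and Snhg8 by 0.75, with limma adjusted p-values of 0.266 for Gas5, 0.364 for Snhg1, 0.209 for Snhg3 and 0.255 for Snhg8. The unadjusted p of Snhg1 was then 0.0502.

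The other long noncoding hosts gave a mixed picture. Of 14 listed genes 13 were in the table and 11 were tested. None was called by limma, 2 were higher and 2 lower at an unadjusted p under 0.05, 7 had a positive difference and the median was 0.093. DESeq2 called 1 higher and 1 lower and edgeR none. On all libraries limma called 1 higher with TMM scaling, a pseudocount of 5, a minimum mean of 50 or array weights. It also called 1 higher without APOE2 replicate 4 or 6, and 1 higher and 1 lower without APOE3 replicate 1. Zfas1, a TOP-containing host of box C/D snoRNAs, came nearest to the threshold: it ran from 2804 to 5472 normalised counts in APOE2 and from 1841 to 3201 in APOE3, a difference of 0.59 (95% interval 0.29 to 0.89) with a limma adjusted p of 0.0546. Snhg11 was lower in mean, at 4.69 ± 5.28 against 43.1 ± 35.1 normalised counts (difference -2.90, limma adjusted p = 0.175), and is also counted below, since the annotation gives it as protein coding. Outside the rule for naming, Dancr (0.49) and Meg3 (-2.09) also had an unadjusted p under 0.05, and Snhg9, Snhg15 and Snhg20, at -0.07, -0.08 and 0.09, lay close to 0.

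**Figure D4:**
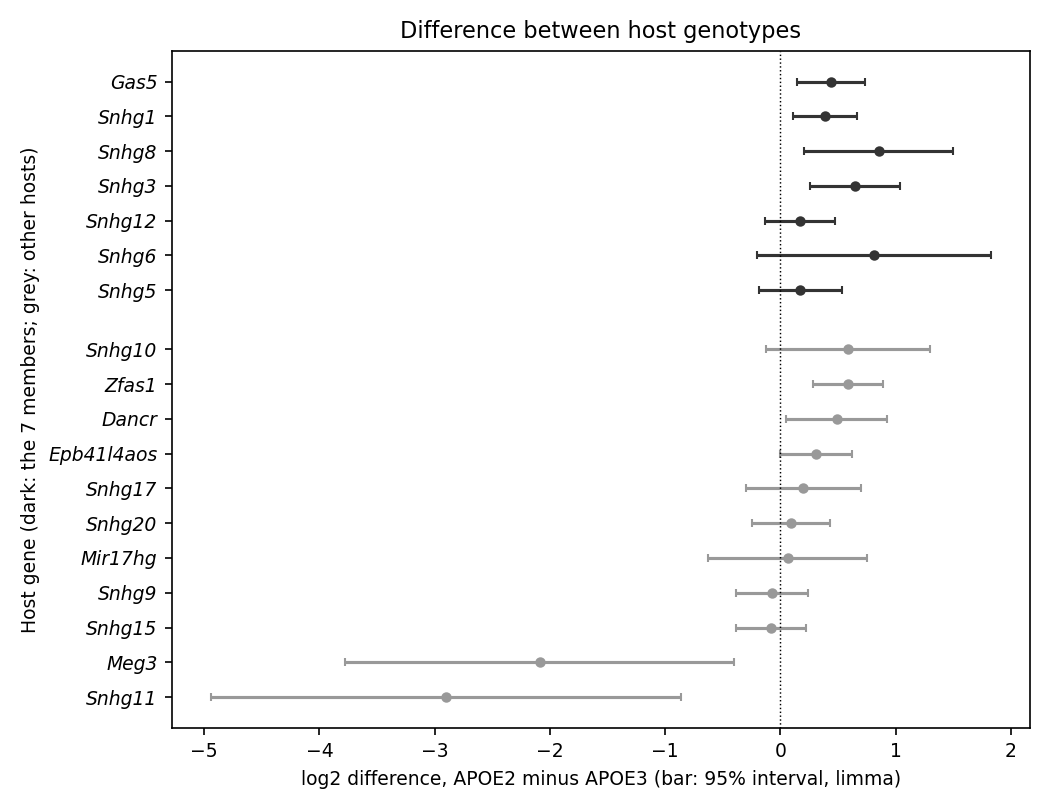
Difference between APOE2 and APOE3 (log2, point) with its 95% limma interval (bar) for the 7 host genes (dark) and 11 other long noncoding hosts (grey). The 7 points lie above 0, and the other hosts run from -2.90 (Snhg11) to 0.59 (Snhg10 and Zfas1). Of the 7 unadjusted intervals, 4 leave out 0. Other settings give from 1 (without APOE3 replicates 2 and 3) to 5 (as without APOE2 replicate 6).

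Most snoRNAs lie in introns of protein-coding genes, and these hosts were centred near 0. Of 201 tested, 113 had a positive difference, with a median of 0.034, and 29 of the 201 were ribosomal protein genes. Without those 29 the remaining 172 had 89 positive differences and a median of 0.0098. Called higher were Taf1d (0.81, 3465 ± 792 against 1984 ± 509 normalised counts, limma adjusted p = 0.0191), which encodes a subunit of the RNA polymerase I factor SL1, and Rpl6 (0.65, limma adjusted p = 0.0283). Called lower was the predicted gene Gm42715 (-0.92, limma adjusted p = 0.0248). Without APOE3 replicate 1 the hosts called were 8 higher and 3 lower, and without APOE3 replicate 3 or 4 there were 0. Without APOE2 replicate 1, 2 or 5 there was 1 higher, and without APOE2 replicate 2 none lower. With an equal ribosomal protein mean the hosts called were 1 higher and 13 lower, 12 of the latter not ribosomal proteins, and with DESeq2 they were 5 higher and 3 lower.

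Genes that act on snoRNAs or on the host RNAs showed no call in limma with the deposited scaling and all libraries. With an equal ribosomal protein mean, 2 decay factors and 1 other TOP mRNA were called lower. Of 18 proteins of snoRNA particles and their assembly, 9 had a positive difference, 3 were higher and 1 lower at an unadjusted p under 0.05, and the median was -0.013. Nop10 (0.54, limma adjusted p = 0.115) and Gar1 (0.56, limma adjusted p = 0.168), both subunits of the H/ACA particle, had the smallest p-values. Of 18 factors of nonsense-mediated decay, 11 were positive, 1 was higher and 3 lower at the unadjusted threshold, and the median was 0.049. Smg8, a partner of the SMG1 kinase, was at 0.71 (limma adjusted p = 0.134) and the kinase gene Smg1 at -0.57 (limma adjusted p = 0.173). Of 22 other TOP mRNAs, 16 were positive, 3 were higher and 1 lower at the unadjusted threshold, and the median was 0.068, led by Naca (0.41, limma adjusted p = 0.123) and Tpt1 (0.49, limma adjusted p = 0.198). DESeq2 on the recovered reads called 1 of the snoRNA particle genes higher, as did limma without APOE3 replicate 1 or without APOE3 replicate 5.

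Likeness between genes was described by Pearson's r of log2 values centred on the group mean, over 13 libraries that share their depth and composition across all genes, so r is given as a description without a p. The genes most like the mean of the 7 members were Rpl35 (r = 0.95), Bola2 (0.95), which encodes an iron-sulfur cluster assembly factor, and Rpl35a (0.92). That mean was not scaled by gene, so Snhg6 and Snhg8, which deviated most, weigh most in it. By member, the most similar gene was Tars for Gas5 (0.94), Rpl36a for Snhg1 (0.93), Atp5g3 for Snhg3 (0.93), Usmg5 for Snhg8 (0.97), Snrpf for Snhg6 (0.97), Rpgrip1 for Snhg5 (0.92) and Exoc8 for Snhg12 (0.91). Tars encodes a threonyl-tRNA synthetase, Atp5g3 and Usmg5 encode subunits of the mitochondrial ATP synthase, and Snrpf encodes a core protein of spliceosomal particles. These are the best of 12403 genes, so high values are reached for any gene searched in this way.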

How the data were processed

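The deposited values are normalised counts, a signal for every gene in each library. Per the submitters' processing notes, STAR 2.6.0, featureCounts and DESeq2 1.28.1 were used with mm10; annotation and strand setting are not given in the sources used here. All nonzero values were whole multiples of a step per library (100% within 0.1 read), so whole reads were recovered. These give counting error only. Symbols came from GENCODE M21 on GRCm38 (22649 of 22656 identifiers matched). Genes with a mean of at least 10 were tested on log2(value + 1) with limma 3.58.1 (R 4.3.3, intensity trend), on all 13 libraries without covariates. A fold on this scale understates the change of low genes. edgeR 4.0.16 (quasi-likelihood), DESeq2 1.42.0, other pseudocounts, scalings, filters, covariates, a replicate block and each library left out were alternatives. Only the limma fit was tested on simulated counts, with planted changes much larger than the differences of the members. Named are the members, overlapping or nearby genes and the genes of most similar pattern. Of each list other than the marker lists, the genes called are named, or otherwise the 2 with the smallest p. Members and lists were chosen with earlier results of these data known.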

Additional observations from a re-analysis of the deposited data

Results flagged for a closer look

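In 34 screens of a group's values (the members, the marker sums and measures of the libraries), 2 held a library farther from the rest than Dixon's limit allows, where chance gives about 1 in 20, or 1.7. The summed fibroblast and smooth muscle markers of APOE3 replicate 4 were 1883 normalised counts, with a gap of 0.789 of the group's range. That library had the lowest Snhg6 value, 29.2, and Gas5, Snhg1, Snhg5 and Snhg12 within 0.05 of their group means on the log2 scale. APOE2 replicate 1 had 13039989 reads, with a gap of 0.566 of the range. It was the highest of its group in Gas5, Snhg1, Snhg8 and Snhg12, and without it the differences of Gas5 and Snhg8 were 0.37 and 0.72. No member's own values were set apart by this limit.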

How the results depend on the processing

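Under 33 alternatives each, Gas5, Snhg1, Snhg3, Snhg6 and Snhg8 kept a positive difference, and no member was called except Snhg3 without APOE3 replicate 1. Several alternatives could not change a difference or its sign, only its p-value or call. These were the other filters, the threshold of 0.1, the deposited scaling recomputed, and robust or untrended limma. With libraries scaled to an equal ribosomal protein mean, which moves every gene by -0.28, Snhg5 was at -0.10 and Snhg12 at -0.11. Leaving out each library gave 0.33 to 0.51 for Gas5, 0.32 to 0.46 for Snhg1, 0.45 to 0.79 for Snhg3, 0.12 to 0.21 for Snhg5, 0.29 to 1.13 for Snhg6, 0.41 to 1.04 for Snhg8 and 0.12 to 0.23 for Snhg12, with 0 to 1 members and 9 to 228 of all genes called, against 98 with every library. The genes called were 429 with an equal ribosomal protein mean, 9 without a filter on low values, 0 with limma without the trend, 311 with DESeq2, 204 at a threshold of 0.1, 2 with lung epithelium markers and 0 with leukocyte markers as a covariate, and 1 without APOE3 replicates 2 and 3; beyond the common shift in the first and the fewer libraries in the last, the cause was not tested. Unadjusted, 1763 genes passed 0.05. With equal library totals 38 genes were higher and 54 lower, against 51 and 47 as deposited. DESeq2 came nearest to a call with all libraries, at an adjusted p of 0.0530 for Snhg3. Leaving out APOE3 replicates 2 and 3 together, thinning the reads, and removing the trend on length and GC content were chosen after seeing the data.

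The replicate number does not pair the libraries: same-numbered libraries correlated at -0.063 to 0.014, and no APOE3 library was most like the APOE2 library of its number. With a replicate block, 43 genes and 0 members were called, with 0.49 for Gas5, 0.84 for Snhg3 and 1.06 for Snhg8. Replicates 6 to 8 exist only in APOE2 and drop out of that difference, which compares replicates 1 to 5 of each group.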
